A study of Mus musculus with 192 samples.

Results

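The comparison described here set the midbrain of hemizygous (HEM) L44 mice against that of nontransgenic (NON) mice at the onset of diabetes, in tissue taken in the afternoon. It rests on 8 of the 192 RNA pools of the study, 3 HEM and 5 NON, picked by their labels (time point T2, midbrain, PM collection) and not by a measured value. Each pool combined equal amounts of RNA from 2 mice, so the 8 pools stand for 16 animals, all male. L44 is a transgenic line on the FVB/n background that carries human amylin with proline substitutions (tripro-hA) under the rat insulin 2 promoter, which drives it in pancreatic β-cells and not by design in neurons. HEM mice carry the transgene on one chromosome of the pair and were collected when blood glucose had exceeded the diabetic threshold in 3 measurements. NON mice were collected at matched ages, as littermates where possible, and were bred from transgenic parents like the HEM mice. Ages within the HEM pools were 156 and 90 days (pool 5/10), 235 and 167 days (pool 7/12) and 243 and 215 days (pool 8/14). The NON pools held mice of 243 and 217 days (2/15), 100 and 128 days (4/13), 185 and 175 days (5/10), 171 and 236 days (6/9) and 156 and 90 days (11/14). The pools named 5/10 in both groups share a number only and hold different mice.

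Amylin is released with insulin from β-cells and limits meal size through receptors made of the calcitonin receptor (Calcr) and a receptor activity modifying protein (Ramp). Leptin from fat acts on hypothalamic neurons through its receptor, Jak2 and Stat3, and Stat3 in turn induces Socs3, which inhibits the receptor. Both signals, with insulin, converge on arcuate neurons that make either the appetite-promoting peptides Npy and Agrp or the appetite-suppressing products of Pomc and Cart. In this study the brain was cut into hindbrain, "midbrain" and the left and right cortex, and the "midbrain" included the forebrain and hypothalamus. The data consist of raw counts of 43 target genes of these pathways and 3 reference genes on the NanoString nCounter, which counts each mRNA molecule with a barcoded probe and without amplification.

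No gene differed between HEM and NON midbrain at an adjusted p under 0.05, so the count of calls was 0 of 43 (0%). A fit of the 6 age-matched pools with each HEM and NON pair as a block called Npy and c-Fos, the latter with HEM higher in 1 of 3 pairs, and the same pools without the block gave 0 calls. The 5 genes with the lowest p-values were Arrb1, Pomc, Npy and Stat3, with higher means in HEM, and Lepr, with a lower one. These 5 were 11.6% of the genes at an unadjusted p under 0.05, and each had an adjusted p of at least 0.314 by the quasi-likelihood test of edgeR, adjusted by Benjamini-Hochberg over the 43 genes. The median log2 fold-change of HEM over NON across the 43 genes was 0.03, with 28 genes above 0 and 15 below. This lean was not stable, with 22 genes above 0 under edgeR's TMM scaling or without NON pool 2/15, and 20 without HEM pool 8/14. For 35 of the 43 genes the 95% confidence interval of the fold-change lay within 1.5-fold in both directions, and for 37 it lay within 2-fold. The intervals that reached past 2-fold were those of Pomc, Npy, c-Fos, Socs3, Iapp and Ins1.

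**Figure D1:**
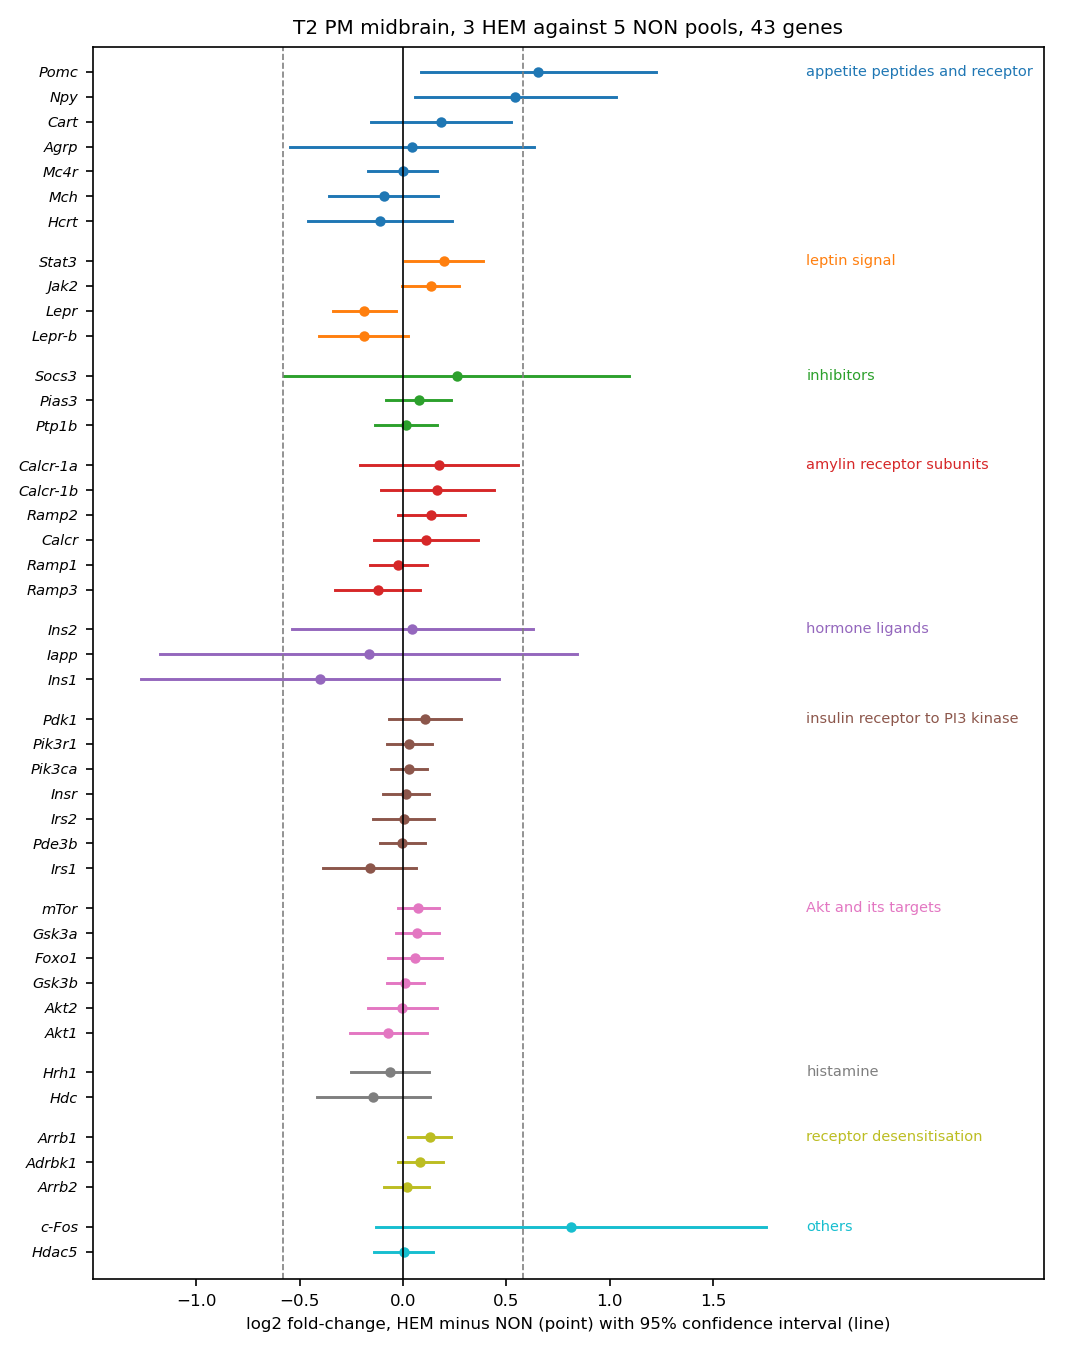
Log2 fold-change of HEM over NON (x axis) for each of the 43 target genes (y axis), grouped by role, as a point with its 95% confidence interval from the fit of all midbrain pools. Dashed lines mark 0.58 in either direction, about 1.5-fold; only c-Fos and Pomc have points beyond them, and the genes from the insulin receptor to the Akt targets all have intervals inside them.

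The total count over all target genes was 266565 to 297894 in HEM pools and 221875 to 291041 in NON pools, and the difference of the means had an exact two-sided permutation p of 0.304, where 56 arrangements of 3 against 5 pools are possible. The geometric mean of the 3 reference genes, which served as the library size, was 5844 to 6314 in HEM and 5271 to 6651 in NON. The background limit of a pool, set 2 SD above the mean of its 8 negative control probes, was between 15.5 and 28.0 counts. Values below are normalised counts, meaning a gene's count over its pool's reference gene mean, rescaled to the reference gene level of an average midbrain pool. They are compared between pools for one gene, and probes of different genes are not ranked by them.

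The content of hypothalamus was checked with 5 genes of hypothalamic neurons (Agrp, Pomc, Hcrt, Mch and Hdc). All 5 were above background in all 8 midbrain pools. Mch, melanin-concentrating hormone, averaged 176 times its normalised count in the hindbrain of the same mice and 236 times its count in the left cortex, and Hcrt, orexin, averaged 36.0 times its hindbrain count. The markers were not equally selective, since Hdc, which makes histamine, averaged 1.15 times its hindbrain level and Pomc 1.54 times. The summed level of the 5 markers, in which the Mch probe gave most of the counts, was 25391 ± 941 in HEM (SD, n = 3) and 26886 ± 3558 in NON (SD, n = 5), with an exact two-sided permutation p of 0.732. Their geometric mean, which gives each marker equal weight, was 757 ± 155 in HEM and 730.0 ± 104 in NON (SD, n = 3 and 5, exact p = 0.732), so the order of the groups depended on the summary. Of the 5, none passed the test, and only Pomc had an unadjusted p under 0.05. In whole tissue, fewer cells of a type and less RNA per cell cannot be told apart.

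Among the appetite genes, Npy and Pomc had the largest differences between the means, and both differences were upward in HEM. Npy, the main appetite-promoting peptide of the arcuate nucleus that is also made by many other neurons, had normalised counts of 33681, 22523 and 23537 in HEM pools 5/10, 7/12 and 8/14. In the NON pools it was 15932 (2/15), 21954 (4/13), 22791 (5/10), 12810 (6/9) and 17706 (11/14). All 3 HEM pools lay above the NON mean, but NON pool 5/10 exceeded HEM pool 7/12, so the groups overlapped. The log2 fold-change of Npy was 0.54 (SE 0.24, 1.46-fold, 95% interval 1.04 to 2.04), with an unadjusted p of 0.0292 and an adjusted p of 0.314 in edgeR. Without HEM pool 5/10 it was 0.34. The study used another test, NanoStringDiff, with 3 NON pools at T2 PM. It reported Npy as significantly raised by more than 1.5-fold in HEM midbrain at T2. By the labelled ages, HEM pools 5/10, 7/12 and 8/14 match NON pools 11/14, 6/9 and 2/15. Npy was higher in the HEM pool of each of these 3 pairs. NON pools 4/13 and 5/10, which are outside the pairs, had the highest Npy of the NON group (21954 and 22791). With the pairs as a block the log2 fold-change was 0.77 (edgeR adjusted p = 1.28e-07), and with the same 6 pools and no block it was 0.78 (adjusted p = 0.121). The blocked fit has 2 residual degrees of freedom for a gene, and edgeR then gave all genes one shared estimate of the spread beyond their counting model.

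Pomc, the precursor of the appetite-suppressing melanocortins, was 385, 805 and 241 in the 3 HEM pools, in the same order. The NON pools had 309, 177, 362, 367 and 301. A single HEM pool, 7/12, was far above all others, and pool 8/14 was lower than 4 of the 5 NON pools. The log2 fold-change was 0.65 (SE 0.28, 1.57-fold, interval 1.06 to 2.33; edgeR adjusted p = 0.314). When pool 7/12 was left out it was 0.05, and when pool 8/14 was left out it was 0.97 with an adjusted p of 0.0677, the lowest adjusted p of any gene over the 8 fits that each left out a pool.

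The remaining peptides had smaller differences between the means. Cart, which is made by Pomc neurons among others and reduces feeding, was 6021, 5845 and 3016 in HEM and 4374, 4685, 4539, 4764 and 3498 in NON. Pools 5/10 and 7/12 were thus above every NON pool and pool 8/14 below every one, with a log2 fold-change of 0.18 (SE 0.17, edgeR adjusted p = 0.700). It was 0.02 without pool 5/10 and 0.44 without pool 8/14 (adjusted p = 0.160). Agrp, which is made with Npy in the same arcuate neurons and blocks the melanocortin receptor, was 124, 143 and 86.3 in HEM and 125, 82.5, 131, 126 and 108 in NON. Its log2 fold-change was 0.04 with a 95% interval from -0.55 to 0.63, which takes in changes slightly above 1.5-fold upward. For Mc4r, the melanocortin receptor that mediates satiety, the counts were 1271, 1063 and 1221 in HEM and 1073, 1184, 1161, 1070 and 1441 in NON. The log2 fold-change of Mc4r was -0.0015 and its interval, -0.17 to 0.16, was among the narrow ones.

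Of the lateral hypothalamic peptides, Hcrt was 844, 832 and 765 in HEM and 913, 839, 884, 975 and 782 in NON, with a log2 fold-change of -0.11 (SE 0.17). Mch was 23612, 24351 and 23238 in HEM against 24185, 23096, 23309, 31333 and 24648 in NON. Apart from NON pool 6/9, all Mch values fell between 23096 and 24648, and the log2 fold-change was -0.09 (SE 0.13). Altogether 4 of the 7 appetite genes had a fold-change above 1 and 3 below, with a median log2 fold-change of 0.04 beside 0.03 over all 43 genes, and 0 of the 7 were called.

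**Figure D2:**
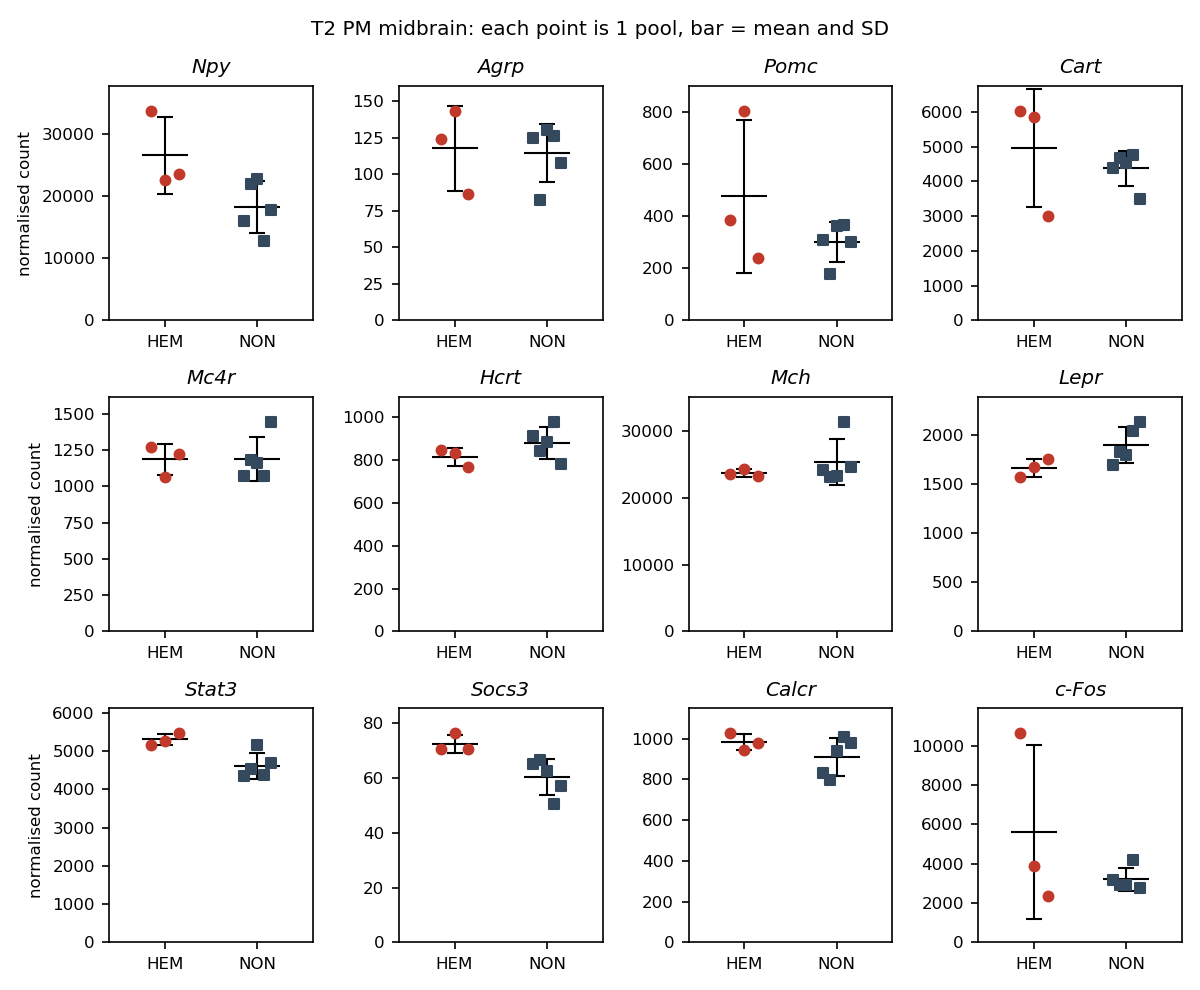
Normalised count (y axis, from 0) of 12 genes in each T2 PM midbrain pool; red circles are the 3 HEM pools, blue squares the 5 NON pools, and the black bar is the mean with its SD. Pools run from left to right as 5/10, 7/12 and 8/14 in HEM and 2/15, 4/13, 5/10, 6/9 and 11/14 in NON. Single HEM pools stand above the rest for c-Fos (10629) and Pomc (805), while the Socs3 values of both groups are separate but close, 70.4 to 76.4 against 50.6 to 66.6.

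c-Fos, an immediate early gene used as a marker of recent neuronal activity, had the largest log2 fold-change of the 43 genes, 0.81 (SE 0.46, interval -0.13 to 1.75, edgeR adjusted p = 0.428). The HEM pools had 10629, 3878 and 2343, and the NON pools 3188, 2935, 2939, 4191 and 2761. Pool 5/10 was more than any other pool by a wide margin, whereas pool 8/14 was the lowest of the 8. Without pool 5/10 the log2 fold-change was -0.04. With the age-matched pairs as a block it was 0.44 (adjusted p = 0.045 in edgeR), although c-Fos was higher in HEM in only 1 of the 3 pairs, that of pool 5/10. The same 6 pools without the block gave 0.73 (adjusted p = 0.729). The same mice were also set apart in the cortex. There c-Fos of HEM pool 5/10 was 27456 on the left and 25418 on the right, on the midbrain scale, while the other 7 pools ranged from 3142 to 7920 on the left and from 3250 to 7538 on the right. In the hindbrain, pool 5/10 had 3474 and lay inside the range of the other pools, 2561 to 4997.

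Pomc of pool 7/12 was also the highest of 8 pools in the hindbrain (662, others 72.5 to 452) and left cortex (130, others 48.0 to 79.9), and the second highest in the right cortex (121), after NON pool 6/9 (161). Npy of HEM pool 5/10 was the highest of 8 in both cortices, at 75837 on the left and 82626 on the right. NON pool 5/10 was close to it, at 72552 and 79394. In the hindbrain HEM pool 5/10 was not the highest (4158, range 3855 to 4344).

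**Figure D3:**
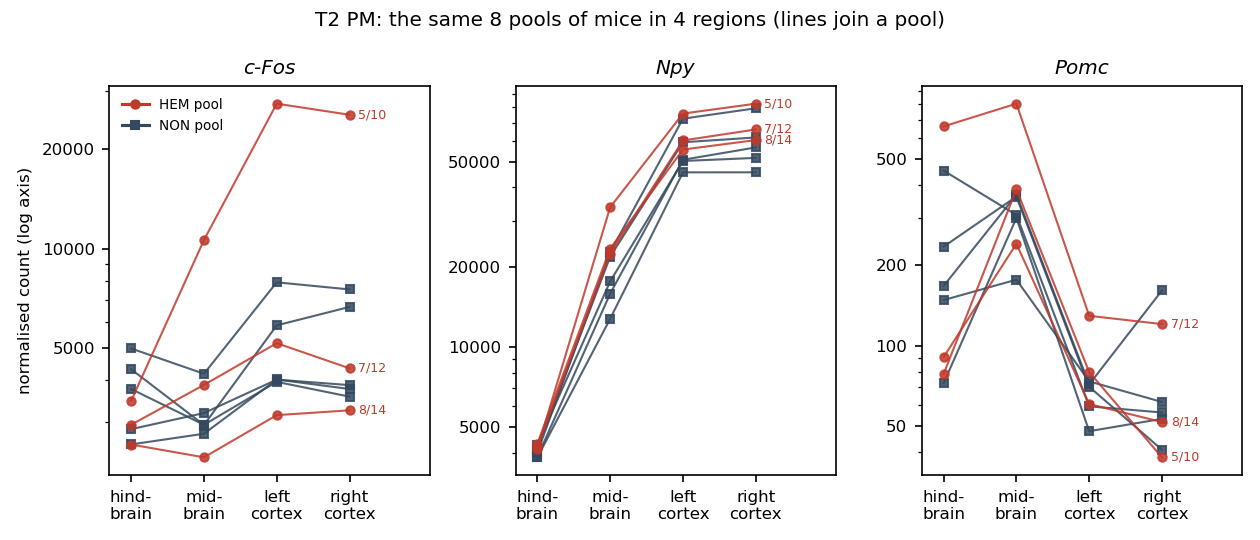
Normalised count (y axis, log scale) of c-Fos, Npy and Pomc in the 4 brain regions (x axis) of the same mice; each line joins the 4 samples of a pool, HEM in red with the pool's name at the right, NON in blue. HEM pool 5/10 has the highest c-Fos in the midbrain (10629) and both cortices but not in the hindbrain, and HEM pool 7/12 the highest Pomc in the midbrain (805), hindbrain and left cortex.

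In the leptin signal, the receptor and its signal carriers had means on opposite sides of NON. Lepr, the leptin receptor, was 1573, 1668 and 1755 in HEM and 1692, 1829, 1789, 2038 and 2128 in NON. The HEM pools were all below the NON mean, although pool 8/14 exceeded NON pool 2/15, and the log2 fold-change was -0.19 (SE 0.076, edgeR adjusted p = 0.314). Lepr-b, the long form that signals through Jak2, was 218, 213 and 179 in HEM and 195, 234, 255, 269 and 206 in NON. Its log2 fold-change was likewise -0.19 (SE 0.11, adjusted p = 0.428 in edgeR), and the 2 probes may count shared transcripts.

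Stat3, the transcription factor that Jak2 activates, was 5163, 5274 and 5467 in HEM and 4336, 4521, 5168, 4371 and 4685 in NON. Only NON pool 5/10 reached into the HEM range, and the log2 fold-change was 0.20 (SE 0.092, 1.15-fold, edgeR adjusted p = 0.328). Jak2 itself had a log2 fold-change of 0.13 (SE 0.067, adjusted p = 0.388 in edgeR), from means of 15832 ± 706 in HEM and 14424 ± 1501 in NON (SD, n = 3 and 5). Each of the 4 genes had an interval within 1.5-fold.

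Of the 3 inhibitors of these signals, Socs3 was the one whose groups did not overlap. Its values were 70.7, 76.4 and 70.4 in HEM and 65.0, 66.6, 62.7, 50.6 and 57.3 in NON. The lowest HEM pool was thus above the highest NON pool by a few normalised counts. The raw counts did overlap, at 71 in HEM pool 8/14 and 72 in NON pool 5/10. The log2 fold-change was 0.26 (SE 0.41, 1.20-fold, adjusted p = 0.784 in edgeR). The SE was set by the spread of Socs3 over all midbrain groups. With the 2 groups fitted alone the SE was 0.15 and the adjusted p 0.579. The tyrosine phosphatase Ptp1b had a log2 fold-change of 0.01 (SE 0.073) and Pias3, an inhibitor of Stat3, 0.08 (SE 0.077).

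Across all 43 genes, 2 (4.65%) had every HEM pool above every NON pool in normalised counts, Socs3 and Arrb1. In 0 (0%) every HEM pool was below. The raw counts of both genes overlapped, with Arrb1 at 19454 in HEM pool 7/12 and 20327 in NON pool 5/10. Arrb1 encodes a β-arrestin that uncouples activated receptors. Its normalised counts were 18507, 18348 and 19961 in HEM and 16255, 18196, 17714, 16539 and 17907 in NON. The difference was small, 0.13 on the log2 scale (SE 0.051, 1.09-fold, 95% interval 1.02 to 1.18; edgeR adjusted p = 0.314). Arrb2 had 0.02 (SE 0.053) and the receptor kinase Adrbk1 0.08 (SE 0.053). All 3 genes of receptor desensitisation had intervals within 1.5-fold.

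The amylin receptor subunits were close in both groups. Calcr was 1027, 946 and 977 in HEM and 831, 798, 938, 1011 and 977 in NON, with a log2 fold-change of 0.11 (SE 0.12, interval -0.14 to 0.36). The probe for splice form Calcr-1a gave 108, 96.2 and 113 in HEM and 78.2, 53.7, 112, 109 and 115 in NON. Its log2 fold-change of 0.18 (SE 0.19) went with 3 NON pools at the HEM level and 2 below it. Calcr-1b gave 181, 153 and 188 in HEM and 121, 145, 170, 199 and 141 in NON, a log2 fold-change of 0.17 (SE 0.13). The accessory proteins Ramp1, Ramp2 and Ramp3 had log2 fold-changes of -0.02, 0.14 and -0.12. Of the 6 subunit probes 4 had means higher in HEM, 0 were called, and all 6 intervals were within 1.5-fold, with a median of 0.12 beside 0.03 over all genes.

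The hormone genes themselves were near background. Iapp, the mouse symbol for amylin, was 44.1, 20.7 and 39.7 in HEM and 39.6, 57.6, 25.3, 37.4 and 36.4 in NON, so the groups overlapped. The log2 fold-change of Iapp was -0.17 with an interval from -1.17 to 0.84, and the study could not tell the endogenous gene from the transgene in these counts. Ins1 was at or under background in 2 of the 8 pools and Ins2 in 1. The means were 25.2 ± 6.01 against 33.5 ± 11.9 for Ins1 and 29.5 ± 4.17 against 28.4 ± 8.38 for Ins2 (SD, HEM n = 3, NON n = 5). None of the 3 intervals was within 1.5-fold.

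The genes of the insulin signal had narrow intervals, and none of them was called. From the insulin receptor to PI3 kinase and its neighbours (Insr, Irs1, Irs2, Pik3ca, Pik3r1, Pdk1 and Pde3b), log2 fold-changes ranged from -0.16 to 0.11 with a median of 0.02. Irs1, an adaptor of the receptor, was the most negative at -0.16 (SE 0.11), from 334 ± 13.5 in HEM and 374 ± 26.7 in NON (SD, n = 3 and 5). Insr itself had 3152 ± 306 and 3118 ± 196, a log2 fold-change of 0.02 with an interval from -0.10 to 0.13. Akt1, Akt2 and their targets Gsk3a, Gsk3b, Foxo1 and mTor ranged from -0.07 to 0.07, with a median of 0.04. All 7 intervals of the first list and all 6 of the second were within 1.5-fold. The same held for both histamine genes, the synthetic enzyme Hdc (-0.14, SE 0.13) and the receptor Hrh1 (-0.06, SE 0.093), and for the histone deacetylase Hdac5 (0.00, SE 0.070).

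HEM pools were next compared directly with the 3 midbrain pools of homozygous (HOM) mice at T2 PM, which carry the transgene on both chromosomes and were 100 to 246 days old. No gene differed at an adjusted p under 0.05 (0 of 43, 0%), and 6 had an unadjusted p under 0.05. Socs3 had the lowest p, with a log2 fold-change of HOM over HEM of 1.29 (SE 0.43, edgeR adjusted p = 0.164). Its HOM values were 66.4 in pool 4/8, 390 in pool 6/9 and 77.0 in pool 7/10, against 70.4 to 76.4 in HEM. Pool 4/8 was thus below every HEM pool and inside the NON range, and pool 7/10 was just above the HEM pools. Leaving out HOM pool 4/8 or 7/10 gave an adjusted p of 0.0151 or 0.0245, both with pool 6/9 still in the group.

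Set against the same 5 NON pools, HOM gave 3 calls (6.98%), namely Socs3 (1.55, adjusted p = 0.0114), Stat3 (0.35, adjusted p = 0.0114) and Npy (0.81, adjusted p = 0.0259), all by edgeR. Without HOM pool 6/9 there were 0 calls. HEM gave 0.26, 0.20 and 0.54 for the same 3 genes on the log2 scale. These comparisons share their NON pools, so a NON pool that is low or high moves both. The direct contrast of HOM with HEM was 0.15 (SE 0.10) for Stat3 and 0.26 (SE 0.27) for Npy, neither called.

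The PM difference was set against the AM difference at T2, from 2 HEM pools (127 to 271 days) and 2 NON pools (130 to 286 days) collected in the morning. These HEM pools hold 3 mice, since 1 of them is a single animal. There were 0 calls among AM pools (0%) and 0 for the difference of the differences (0%), whose lowest adjusted p was 0.811. Among the AM pools 8 genes had an unadjusted p under 0.05, with a lowest adjusted p of 0.0768 in edgeR. Npy had a log2 fold-change of 0.88 in AM (SE 0.33, edgeR adjusted p = 0.134), from HEM pools at 15574 and 37511 and NON pools at 13877 and 14951. c-Fos had -0.81 in AM (SE 0.65) against 0.81 in PM, a difference of 1.62 (SE 0.80, unadjusted p = 0.0518, edgeR adjusted p = 0.811). For Pomc the AM value was -0.04 (SE 0.39). Iapp had 1.55 in AM (SE 0.71, edgeR adjusted p = 0.224), from HEM pools at 41.7 and 71.5 and NON pools at 12.7 and 24.0. Its PM value was -0.17, a difference of -1.71 (SE 0.87, edgeR adjusted p = 0.811).

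At T1, at 99 to 101 days of age and before diabetes, 2 HEM and 3 NON PM midbrain pools of 3 and 5 mice gave 0 calls (0%). There 12 genes had an unadjusted p under 0.05, with a lowest adjusted p of 0.0816 in edgeR. The difference between the T2 and T1 effects also gave 0 calls (0%, lowest adjusted p = 0.344 in edgeR). Npy was 0.12 at T1 (SE 0.30), Pomc 0.13 (SE 0.36) and Stat3 0.19 (SE 0.12). The T1 value of c-Fos was -0.66 (SE 0.60), and its T2 effect differed from that by 1.47 (SE 0.77, edgeR adjusted p = 0.345). At T3, 2 HEM pools (402 to 404 days) and 3 NON pools (401 to 406 days) of PM collection gave 0 calls (0%). The T3 values were -0.03 for Npy (SE 0.30), 0.31 for Pomc (SE 0.36), 0.02 for Stat3 (SE 0.12) and -0.05 for c-Fos (SE 0.59). Lepr, lower in HEM at T2, was 0.05 at T1 (SE 0.094) and 0.21 at T3 (SE 0.094, edgeR adjusted p = 0.982). It was the only T3 gene with an unadjusted p under 0.05 (0.0312 in edgeR). With 2 HEM pools at each of these times, the SE of Npy and Pomc leaves room for effects as large as those at T2.

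**Figure D4:**
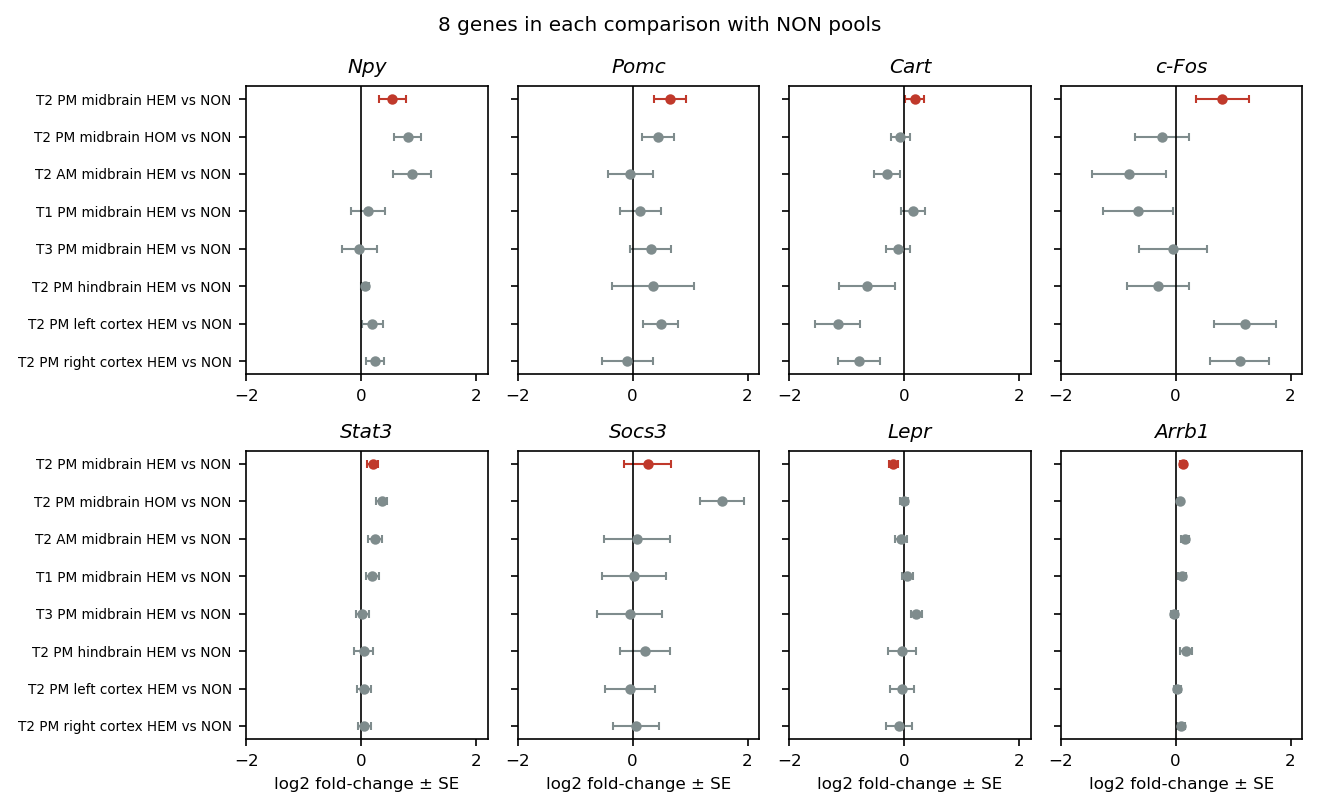
Log2 fold-change (x axis) with its SE for 8 genes in the T2 PM midbrain comparison of HEM with NON (red) and in the 7 related comparisons (grey), named on the y axis. The midbrain comparisons of HEM and HOM at T2 PM share their NON pools. Npy was 0.54 in the red comparison, 0.88 at T2 AM and 0.12 at T1 and -0.03 at T3. The values of c-Fos were highest in the 2 cortices, where only HEM pool 5/10 (27456 left, 25418 right) exceeded every NON pool.

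The same 8 pools were available for the other regions, which allowed the HEM effect to be compared between regions within each pool with limma. The effect did not differ at an adjusted p under 0.05 for any gene between midbrain and hindbrain (0%), left cortex (0%) or right cortex (0%), with lowest adjusted p-values of 0.347, 0.188 and 0.325. With library sizes from the positive control probes, 17 genes differed between midbrain and right cortex, Npy among them (0.51, limma adjusted p = 0.0188), while the median of all genes moved from 0.00 to 0.22. On the reference gene scale Npy had a larger effect in the midbrain than in the hindbrain by 0.48 (SE 0.21), the left cortex by 0.35 (SE 0.11) and the right cortex by 0.30 (SE 0.11), each on the log2 scale, with limma adjusted p-values of 0.347, 0.188 and 0.325. c-Fos differed from the left and right cortex by -0.09 (SE 0.26) and -0.02 (SE 0.30), and from the hindbrain by 0.81 (SE 0.37, limma adjusted p = 0.347).

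In the regions themselves, HEM against NON at T2 PM called 2 hindbrain genes (4.65%), 1 left cortex gene (2.33%) and 0 right cortex genes (0%). The hindbrain calls were Foxo1 (0.33, edgeR adjusted p = 0.0119) and Ramp2 (0.33, adjusted p = 0.0150), and both were lost without HEM pool 7/12, while 1 call was left without HEM pool 5/10 or NON pool 6/9. Their midbrain values were 0.06 and 0.14. The left cortex call was Calcr, at 193, 141 and 34.8 in the HEM pools and 17.1 to 28.0 in the NON pools, on the midbrain scale (log2 fold-change 2.42, edgeR adjusted p = 0.00067). Calcr was above the background limit in all 3 HEM pools but in only 1 of the 5 NON pools there, so the size of this fold-change, and of the differences from it, rests on counts at background. The left cortex count was 5 without HEM pool 8/14 and 2 without NON pool 5/10. The limma differences given next rest on log2 differences within pools, so they need not equal a subtraction of the edgeR fold-changes. In the midbrain Calcr was 0.11 in edgeR. Within pools, its HEM effect differed between midbrain and left cortex by -1.98 (SE 0.51, unadjusted p = 0.00497, limma adjusted p = 0.188). Without HEM pool 8/14 that difference was -2.72 with an adjusted p of 0.00027. In the right cortex Calcr was 122, 64.7 and 46.3 in HEM and 18.3 to 98.6 in NON (log2 fold-change 0.93, edgeR adjusted p = 0.451). The within-pool difference of midbrain from right cortex was -0.96 for Calcr (SE 0.51, limma adjusted p = 0.453). For Cart the left cortex value was -1.16 (SE 0.39, adjusted p = 0.116 in edgeR) beside 0.18 in the midbrain. The within-pool difference of midbrain from left cortex was 1.27 for Cart (SE 0.48, limma adjusted p = 0.263), or 1.86 without HEM pool 8/14 (adjusted p = 0.0278). Against the right cortex the difference for Cart was 0.91 (SE 0.50, limma adjusted p = 0.453).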

How the data were processed

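The authors deposited the raw nCounter counts of each probe and pool, without background correction or normalisation. Pools were grouped by their labels. The members and gene lists were chosen with earlier results of these data known. All 46 midbrain pools with a labelled collection time were fitted in edgeR 4.0.16 (R 4.3.3), with 1 mean for each of 17 groups and the reference genes' geometric mean as library size. The quasi-likelihood test was adjusted by Benjamini-Hochberg over 43 genes, at 0.05, with log2 limits of 1 and 0.58. SEs were the fold-change over the root of F. Region differences within pools, as log2 of the normalised count with 0.5 added to the count, were tested with limma 3.58.1. DESeq2 1.42.0 was an alternative. NanoStringDiff, which the study used, was not available. Every pool value is given for the 10 genes with the largest log2 fold-change above background, for the appetite genes, Socs3, c-Fos and Calcr, and for Arrb1, added after its values were seen. None of the 13 pairs of pools within a group had identical counts (lowest chi-square per degree of freedom 18.9). Pools of a group hold different mice. The reference genes are not reported singly. The 12 T1 HEM pools without a collection time were left out. Figures were drawn with matplotlib.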

Additional observations from a re-analysis of the deposited data

Results flagged for a closer look

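Among the 43 genes, 4 had a NON pool whose gap to the nearest of the other 4 was large for the range of the group; such a gap arises by chance in about 1 in 20 groups of 5. Mch was 31333 in pool 6/9 and 23096 to 24648 in the others. Irs1 was 326 in pool 2/15 and 383 to 389 elsewhere, near the HEM pools at 321 to 348. Pias3 was 1606 in pool 4/13, above 1463 to 1483. In that same pool Ramp3 was 2941, below 3404 to 3592.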

How the results depend on the processing

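Over 15 alternatives and 8 fits that each left out a pool, the count of genes called between HEM and NON midbrain was 0, except with the age-matched pairs as a replicate block, which gave 2 calls, Npy (0.77, edgeR adjusted p = 1.28e-07) and c-Fos (0.44, adjusted p = 0.045), 1 of them past 1.5-fold. The labels match these pools by age and do not say which are littermates, and the deviations of paired pools correlated at -0.03, 0.24 and -0.11. The same 6 pools without the pair term gave 0 calls, with 0.78 for Npy (edgeR adjusted p = 0.121). They gave 0.73 for c-Fos (edgeR adjusted p = 0.729), which was higher in HEM in 1 of 3 pairs. These pools leave out NON pools 4/13 and 5/10, the highest of the NON group for Npy. Direction was kept in every alternative by 16 of the 18 genes followed. Agrp turned to -0.021 with the 3 age-matched NON pools, -0.043 with the block and -0.021 with the 6 pools without it, and ranged from -0.121 to 0.222 when pools were left out. Mc4r turned to 0.013 without the first reference gene and to 0.033 with age as covariate, with a range of -0.055 to 0.079. c-Fos ranged from -0.042 to 1.18. Leaving out pools gave 0 to 1 calls for HOM against HEM and 0 to 2 for midbrain minus left cortex. With positive control probes as the library size, midbrain minus right cortex gave 17 calls, and the median log2 difference of all genes moved from 0.00 to 0.22. The cause was not tested. At this number of pools the intervals of Pomc, Npy, c-Fos, Socs3, Iapp and Ins1 take in a 2-fold change.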
